A study of Mus musculus with 6 samples.

Results

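Intestinal epithelium defends its surface against microbes with secreted proteins and with enzymes that make reactive molecules. Genes of this defence were followed here in mouse tumour organoids exposed to chemotherapy. The set was drawn up by function, as secreted or membrane proteins of this defence, and holds 10 genes, Lcn2, Reg3b, Reg3g, Saa1, Saa3, Nos2, Duox2, Duoxa2, Pigr and Slpi, of the 24190 genes with a row in the counts. A row was found for 9 of them, and 4 passed the expression filter that precedes the test. Reg3b had no row in the counts used here and was not analysed.

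The samples were 6 RNA preparations of MTO54, a mouse tumour organoid (MTO) line of the triple mutant AKP genotype, labelled as parental and grown as single dissociated cells in basement membrane extract. In patients Folfiri combines folinic acid, a fluoropyrimidine and irinotecan. Here it was 5FU (50 μg/μl as written in the labels) together with 100 nM SN38, the active form of irinotecan. Medium with these agents, or complete stem cell medium alone for the controls, was added 2 days after seeding and left for 2 days by the labels, whereas a figure legend of the study gives a longer time. Each group had 3 samples. The protocols name no immune cells, stroma or microbes in the cultures, and the study calls the samples biological replicates without saying in the sources used here whether they were separate cultures, so the p-values measure the spread between these samples. Messenger RNA was sequenced, and the counts on genes ranged from 22103591 to 30098210 per sample. Levels are given as CPM, counts scaled to a common library size with TMM factors. Lower RNA per cell and fewer cells of one kind cannot be told apart in such bulk samples.

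The proteins of the set work in different ways. Lipocalin-2 (Lcn2) binds the siderophores with which bacteria take up iron, Reg3 lectins bind and kill bacteria, serum amyloid A proteins carry lipids and retinol and are made in acute inflammation, and Slpi inhibits neutrophil elastase and other serine proteases. Nos2 makes nitric oxide from arginine, Duox2 with its maturation factor Duoxa2 makes hydrogen peroxide at the cell surface, and Pigr carries IgA and IgM across the epithelium. In intact gut many of these genes respond to microbes and to cytokines such as IL-22, IL-17 and IL-1.

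Promoters of the set are shown first, as a description of the sequence before each gene. RefSeq windows on GRCm38.p6 were available for 9 of the 10 genes, not for Nos2, and the 250 bases before each annotated start were searched on both strands for the C/EBP letters TTGCNNAA, the STAT letters TTCNNNGAA, the AP-1 letters TGANTCA and an NF-kB motif. The C/EBP letters were found in 4 of the 9 windows, those of Lcn2, Saa3, Saa1 and Slpi, and in 9.56% of 32851 RefSeq windows of the same length. The letters TTGCTCAA lay 216 to 209 bases before the Lcn2 start, TTATGCAA 99 to 92 bases before the Saa3 start, TTGCACAA 182 to 175 bases before the Saa1 start and TTGAGCAA 241 to 234 bases before the Slpi start. These 4 windows are printed 5′ to 3′ with the C/EBP letters in capitals, leaving out bases that GENCODE vM21 places in a UTR. Of the Lcn2 window, 197 of 250 bases fall in an exon of some GENCODE transcript, so for that gene the RefSeq start is not the only annotated one. The Slpi window likewise lies inside the span of the GENCODE gene, whose 5′ end is at 164389095.
Lcn2, chr2:32387798-32387989, minus strand: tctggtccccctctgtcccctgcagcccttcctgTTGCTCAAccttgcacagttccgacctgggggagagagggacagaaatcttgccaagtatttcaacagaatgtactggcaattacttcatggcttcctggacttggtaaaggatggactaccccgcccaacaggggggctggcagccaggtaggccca
Saa3, chr7:46715701-46715926, minus strand: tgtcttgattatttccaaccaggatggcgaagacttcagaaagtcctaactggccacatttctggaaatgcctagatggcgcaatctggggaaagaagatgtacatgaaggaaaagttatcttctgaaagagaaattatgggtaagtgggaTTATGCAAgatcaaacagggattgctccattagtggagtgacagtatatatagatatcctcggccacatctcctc
Saa1, chr7:46742981-46743230, minus strand: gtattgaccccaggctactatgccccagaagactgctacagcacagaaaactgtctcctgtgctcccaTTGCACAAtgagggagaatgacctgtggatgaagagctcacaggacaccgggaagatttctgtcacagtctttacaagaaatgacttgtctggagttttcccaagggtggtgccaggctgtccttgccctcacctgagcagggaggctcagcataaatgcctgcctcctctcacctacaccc
Slpi, chr2:164356508-164356757, minus strand: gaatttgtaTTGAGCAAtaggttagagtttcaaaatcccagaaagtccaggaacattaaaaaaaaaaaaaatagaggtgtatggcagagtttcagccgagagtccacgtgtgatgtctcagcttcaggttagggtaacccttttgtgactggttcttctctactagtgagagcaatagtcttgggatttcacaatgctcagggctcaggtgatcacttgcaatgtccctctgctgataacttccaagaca
Other motifs were found once each, STAT letters in the Reg3b window (7.02% of all windows), an NF-kB match in Reg3g (7.25%) and AP-1 letters in Duoxa2 (6.75%), and none in Duox2 or Pigr. A match of letters describes the sequence only.

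Lcn2, Saa3 and Nos2 were upregulated by Folfiri from at most 5 reads per control library to at least 22 per treated library. Slpi had a slightly lower mean, a difference whose call did not hold in every alternative. The other members with a row, Pigr, Duox2, Duoxa2, Saa1 and Reg3g, stayed at 17 or fewer reads in every library and did not pass the filter. Summed over the members, the control libraries held 2.05 to 3.44 CPM and the treated libraries 6.47 to 9.59 CPM, with Slpi the largest part before treatment and Lcn2 after it.

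**Figure D1:**
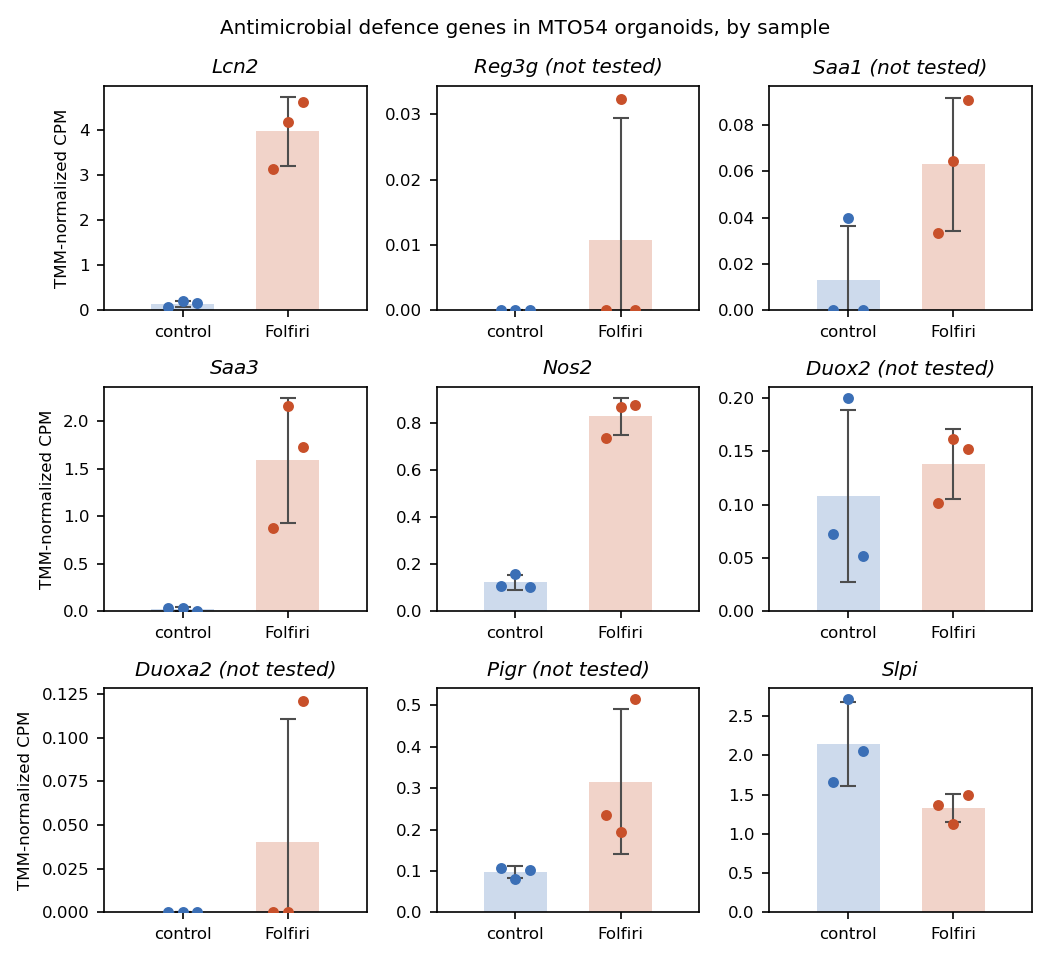
TMM-normalized CPM of the 9 members with a row in the counts, on linear axes from 0 that differ between panels; points are samples with replicates 1 to 3 from left to right, bars are group means and whiskers are SD (n = 3). The control and Folfiri samples did not overlap for Lcn2, Saa3, Nos2, Pigr and Slpi, and the panels of untested genes rest on at most 17 reads per library.

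Lcn2 (ENSMUSG00000026822; GRCm38 chromosome 2, 32384633 to 32388252, minus strand) had 2, 5 and 3 reads in the control samples and 93, 129 and 152 reads after Folfiri. Every treated sample was far above every control sample, a separation that 41.6% of tested genes showed upwards and 39.9% downwards. The mean level was 0.142 ± 0.0648 CPM in controls and 3.96 ± 0.766 CPM after treatment (SD, n = 3), 27.8-fold or 4.80 on the log2 scale (SE 0.33; edgeR's quasi-likelihood test, adjusted p = 3.19e-07 by Benjamini-Hochberg over 14692 genes). Counting error alone gave a 95% interval of 15.5 to 60.6 around a ratio of reads of 28.8. Among all tested genes, Lcn2 ranked 92 from the top by log2 fold change.

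The background of this comparison was high, since 79.1% of tested genes were called, 40.3% higher and 38.8% lower. Against it, the 3 members called higher and the 1 called lower do not stand out by number. Nor is a call informative for a gene that is almost unread in controls, because Lcn2, Saa3 and Nos2 passed the filter only through their treated samples, and of 411 tested genes with at most 12 control reads in all, 100.0% were called higher. What can be read is the size of each change and its spread between samples.

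Saa3 (ENSMUSG00000040026; chromosome 7, 46711998 to 46715700, minus strand), the serum amyloid A form made mainly outside the liver in mice, had 1, 1 and 0 reads in controls and 26, 67 and 57 reads after Folfiri. The groups did not overlap, while the treated samples differed more, relative to their mean, than those of Lcn2. Its level went from 0.0253 ± 0.022 to 1.59 ± 0.657 CPM (SD, n = 3 each; log2 fold change 5.63, SE 0.66, adjusted p = 1.62e-05 by edgeR's quasi-likelihood test). With 2 control reads in all, the ratio of reads was 57.8 with a 95% counting interval from 15.7 to 481, so the size of this change is poorly bounded from above.

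Saa1 (ENSMUSG00000074115), an acute phase apolipoprotein of the same cluster, lies 24797 bp from Saa3 on the same strand (chromosome 7, 46740497 to 46742980). It had 0, 1 and 0 reads in controls and 1, 2 and 3 after Folfiri, so the groups overlapped. The ratio of reads was 4.62, with a 95% counting interval from 0.561 to 213. A ratio of Saa1 to Saa3 within each library, with 0.5 added to both, differed between the groups by -3.78 on the log2 scale, but its control values are set by the added 0.5, so it restates the rise of Saa3. Their neighbours Saa2, with no control reads and 1, 4 and 2 reads after Folfiri, and Saa4, with 1 read in 6 libraries, were also nearly silent. Taking 3 reads over the control group as the floor, the ratio of reads for Saa2 was 1.80, without counting error in the treated reads. Saa1 and Saa2 have closely similar sequences, and how the counting treated reads with several positions is not given in the sources used here.

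Nos2 (ENSMUSG00000020826; chromosome 11, 78920787 to 78960254, plus strand) had 3, 4 and 2 reads in controls and 22, 27 and 29 after Folfiri. The treated samples were close to each other and well above the controls. Its level rose from 0.124 ± 0.0316 to 0.83 ± 0.0797 CPM (SD, n = 3; log2 fold change 2.69, SE 0.34, adjusted p = 2.95e-05 by edgeR's quasi-likelihood test), a 6.47-fold change with a counting interval from 3.34 to 15.1 around the ratio of reads of 6.68. It stayed under 1 CPM in every treated sample.

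Slpi (ENSMUSG00000017002; chromosome 2, 164354070 to 164389095, minus strand) had 46, 68 and 40 reads in controls and 41, 35 and 49 after Folfiri. After scaling these were 1.66, 2.72 and 2.06 CPM against 1.37, 1.13 and 1.49 CPM, groups that came close without overlapping, as in 39.9% of tested genes downwards. The log2 fold change was -0.68 (SE 0.23, adjusted p = 0.017, edgeR's quasi-likelihood test). This call was lost with scaling by total counts only (-0.40, adjusted p = 0.111 in edgeR), without control replicate 2 (-0.47, adjusted p = 0.095) and without Folfiri replicate 2 (-0.57, adjusted p = 0.0735), so a fall of Slpi is not settled by these 6 samples.

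Pigr (ENSMUSG00000026417; chromosome 1, 130826684 to 130852249, plus strand) had 3, 2 and 2 reads in controls and 7, 6 and 17 after Folfiri. Each treated sample was above each control sample, with 1 of them far higher than the rest. The ratio of reads was 3.30 with a 95% counting interval from 1.42 to 8.90. Without a filter edgeR gave 1.65 on the log2 scale (SE 0.61, adjusted p = 0.0213), where 27.2% of 24190 genes were called higher, while DESeq2 gave 1.70 with an adjusted p of 0.0887.

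Duox2 (ENSMUSG00000068452; chromosome 2, 122279247 to 122298449, minus strand) and Duoxa2 (ENSMUSG00000027225; 122298900 to 122302885, plus strand) are neighbours 451 bp apart on opposite strands. Duox2 had 2, 5 and 1 reads in controls and 3, 5 and 5 after Folfiri, overlapping groups with a ratio of 1.25 and a 95% counting interval from 0.481 to 3.48. A change inside that interval was not detectable at this depth. Duoxa2 had no control reads, which allows up to 0.0415 CPM, and 0, 0 and 4 reads after Folfiri. Exons of Duoxa2 overlap those of Duoxa1 on the other strand, and whether reads were assigned by strand is not given in the sources used here. With Duoxa2 unread in 5 of 6 libraries, its ratio to Duox2 cannot be read. The log2 ratio of Duox2 to its relative Duox1, with 0.5 added to both, differed by -0.65 between the groups (exact two-sided permutation test, p = 0.5, and 0.75 after Benjamini-Hochberg adjustment over 3 ratios). This was less than the SD of 1.2 among the Folfiri samples. With 3 samples per group this permutation test cannot go below p = 0.1, so it could not have called a difference.

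Reg3g (ENSMUSG00000030017; chromosome 6, 78466269 to 78468872, minus strand) was read once, in Folfiri replicate 2. No control read allows up to 0.0415 CPM. The other genes of its cluster were as low, with 1 read in all for Reg3d, 2 for Reg2 and 1 for Reg1.

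Per kilobase of exon, the measure that allows genes to be compared, Slpi was the highest member in controls at 1.82 CPM per kb. After Folfiri Lcn2 was at 1.51 and Slpi at 1.13 CPM per kb, a small gap beside their replicate ranges of 1.19 to 1.76 and 0.957 to 1.26. Next came Saa3 at 0.609 and Nos2 at 0.188 CPM per kb, and every other member was below 0.1. Among the 24190 genes of the table, Lcn2 moved from the 33.0 to the 55.9 percentile of level per length, Saa3 from the 22.5 to the 48.7 and Nos2 from the 28.8 to the 39.5. These percentiles are over every gene in the table, including those that failed the expression filter.

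Secreted antimicrobial genes outside the set reached far higher levels per length, up to a mean of 929 CPM per kb for Sprr2a2 in controls, and mostly fell. In a list of 19 such genes 10 were tested, of which 1 was higher and 9 were lower, where 38.8% of all tested genes were lower. The median log2 fold change was -1.08 beside 0.02 over the whole test. These 9 are not separate observations, since they include the 3 Sprr2a copies and the overlapping Ang and Rnase4. The median lies at the changes of the Sprr2a genes. Zg16, also among the 9, passed the filter only through its controls. Pglyrp1, a peptidoglycan recognition protein that kills bacteria, was at 685 ± 83.3 CPM in controls and 465 ± 44.7 CPM after treatment (SD, n = 3; log2 fold change -0.56). The small proline-rich Sprr2a genes, whose protein is active against Gram-positive bacteria, were the most abundant, as Sprr2a2 fell from 2700 ± 545 to 1270 ± 148 CPM (log2 fold change -1.08). Sprr2a1 and Sprr2a3 changed by -1.09 and -1.10, but the 3 genes are near-identical copies between which the counting may split reads. Rnase4, a secreted ribonuclease whose exons overlap those of Ang, fell by 2.19 on the log2 scale from 105 to 22.9 CPM, and Pla2g2a, a phospholipase that attacks bacterial membranes, fell by 1.97 from 21.7 to 5.52 CPM. Lbp, which binds lipopolysaccharide, was the 1 gene called higher, at 0.325 ± 0.0857 and 0.938 ± 0.344 CPM (log2 fold change 1.55). It passed the filter only through its treated samples and was not tested under the stricter one. Of the 7 listed relatives of the Reg and Saa members, 6 had a row and only Reg4, a secreted lectin of goblet and endocrine lineages, was tested. It had 94, 47 and 40 reads in controls and 4, 6 and 11 after Folfiri (log2 fold change -3.44, SE 0.36), and passed the filter only through its controls.

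**Figure D2:**
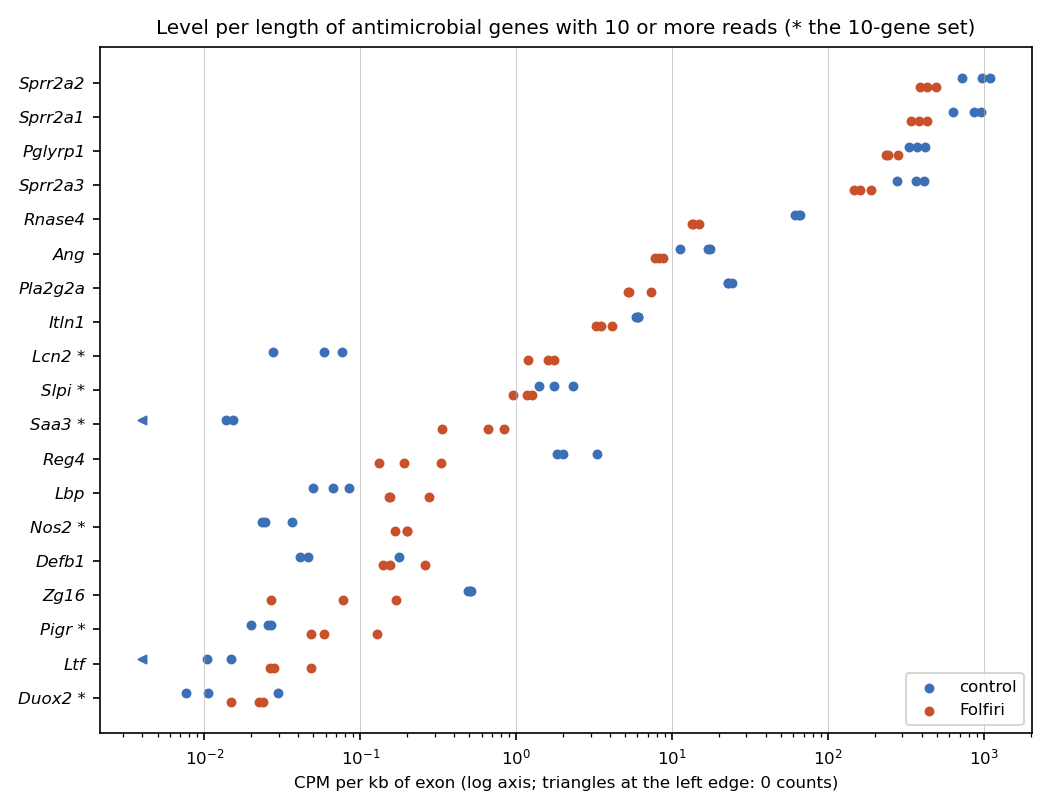
CPM per kb of exon on a log axis for the genes of the set (asterisks) and of the lists of secreted antimicrobial proteins and Reg and Saa relatives that had 10 or more reads over the 6 samples; each point is a sample, blue for control and orange for Folfiri, and triangles mark 0 reads. Lcn2 and Saa3 move to the right by more than any plotted gene moves to the left, yet stay under 2 CPM per kb, whereas Pglyrp1 and the Sprr2a genes stay above 100.

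Around Nos2, 13 enzymes of nitric oxide and arginine metabolism were tested, 6 higher and 6 lower (median log2 fold change 0.00). These shares are near the 40.3% and 38.8% of all tested genes. Of the 6 higher, 2 passed the filter only through their treated samples. Arg1, 1 of these, had the largest called rise, from 0.29 ± 0.187 to 1.25 ± 0.158 CPM (log2 fold change 2.04). Nos3, the endothelial form of nitric oxide synthase, fell from 6.47 ± 0.763 to 0.442 ± 0.177 CPM (log2 fold change -3.87, SE 0.24), and passed the filter only through its controls. Nos1, the neuronal form, had no control reads and 9, 12 and 4 reads after Folfiri, and was not tested. Its ratio of reads was 6.42 against a floor of 3 control reads, without counting error in the treated reads. Exons of genes on the opposite strand overlap Nos3 and Nos1. Ass1, which recycles citrulline to arginine together with Asl, fell from 235 ± 9.82 to 51.5 ± 0.917 CPM (-2.19 on the log2 scale) and Asl from 94.0 to 49.9 CPM (-0.91). Ddah2, which degrades inhibitors of nitric oxide synthases, fell from 91.2 to 19.8 CPM (-2.21). The arginine transporter Slc7a1 rose by 0.65 on the log2 scale and Nostrin, which binds Nos3, by 0.96. Gch1, which makes the cofactor of these synthases, was also lower (-0.85; named after its value was seen).

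Of the NADPH oxidase family of Duox2, 6 of 14 genes were tested, 2 higher and 2 lower (median 0.19), no more than the 40.3% and 38.8% of all tested genes. Nox1, the main oxidase of colon epithelium, had 6, 4 and 7 reads in controls and 37, 36 and 39 after Folfiri (log2 fold change 2.32, SE 0.30), and passed the filter only through its treated samples. Its membrane partner Cyba rose by 0.58, from 13.7 to 20.6 CPM. Its activator Noxa1 fell from 7.15 ± 1.04 to 1.04 ± 0.129 CPM (log2 fold change -2.78) and its organizer Noxo1 from 1.46 ± 0.503 to 0.471 ± 0.174 CPM (-1.61), Noxo1 passing the filter only through its controls. Opposite-strand exons overlap Nox1, Noxa1 and Noxo1. Duox1 had 3 control and 10 Folfiri reads in all, and Duoxa1 14 and 6.

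Of genes that act with Pigr, 8 of 12 were tested, 2 higher and 5 lower (median -0.57), where 38.8% of all tested genes were lower, and several alternatives called 4 lower. Rab11a (-0.78), Rab25 (-0.94) and the motor Myo5b (-1.86), which serve the recycling endosomes through which receptors are carried, were lower, Myo5b from 84.4 ± 0.642 to 23.3 ± 1.38 CPM. Rab17, which also acts in this transport, rose from 5.42 ± 0.266 to 11.3 ± 0.819 CPM (1.06). Jchain, which joins the antibodies that Pigr carries, had 8 reads in each group. For Lcn2, the receptor gene Slc22a17 was at 5.73 ± 0.985 and 5.30 ± 0.643 CPM (log2 fold change -0.10, SE 0.16, adjusted p = 0.575 in edgeR). Lrp2, another receptor that takes up lipocalin-2, had 0, 0 and 1 reads in controls and 5, 7 and 3 after Folfiri, and Bdh2, a dehydrogenase gene of the same list, 1, 0 and 1 against 2, 5 and 6, and neither passed the filter. Of other protease inhibitors beside Slpi and of the proteases, 6 of 10 listed genes were tested, 1 higher and 3 lower (median -0.12), beside 40.3% and 38.8% of all tested genes. Spint1 had a log2 fold change of 0.30, Serpinb1a of -0.93, Spint2 of -0.53 and Serpinb6a of -0.34. Elane, the elastase that Slpi inhibits, had 1 control and 2 Folfiri reads.

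Under scaling by total counts only, the median change over the tested genes was 0.30 on the log2 scale in place of 0.02, and 63.3% of calls were higher in place of 51.0%. Small differences, such as the medians of the oxidase and protease inhibitor lists, therefore depend on the scaling. Spint1 then stood at 0.57, while Serpinb6a (-0.05, adjusted p = 0.459 in edgeR) and Cebpb (-0.08, adjusted p = 0.50) were no longer called.

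Acute phase and complement genes, to which the Saa family belongs, numbered 16 in the list. Of these 6 were tested, 5 called higher and none lower, beside 40.3% and 38.8% of all tested genes. Their median log2 fold change of 3.26 rests on genes almost unread in controls. Cp, the ferroxidase ceruloplasmin, rose from 0.762 ± 0.142 to 20.5 ± 3.04 CPM (4.74, SE 0.19, adjusted p = 9.64e-09 in edgeR), and C3, the central complement component, from 9.52 ± 0.901 to 22.6 ± 3.61 CPM (1.25). Exons of Hps3 on the opposite strand overlap Cp. Hp, Hpx and Lrg1 were the other 3, at 0.458, 0.416 and 0.515 CPM after Folfiri. These 3 had at most 4 reads in any control library and, like Lcn2, entered the test only through their treated samples. With a filter of at least 1 CPM in 3 samples, 3 genes of the list were left, of which Cp and C3 were called, and the median was 1.26.

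**Figure D3:**
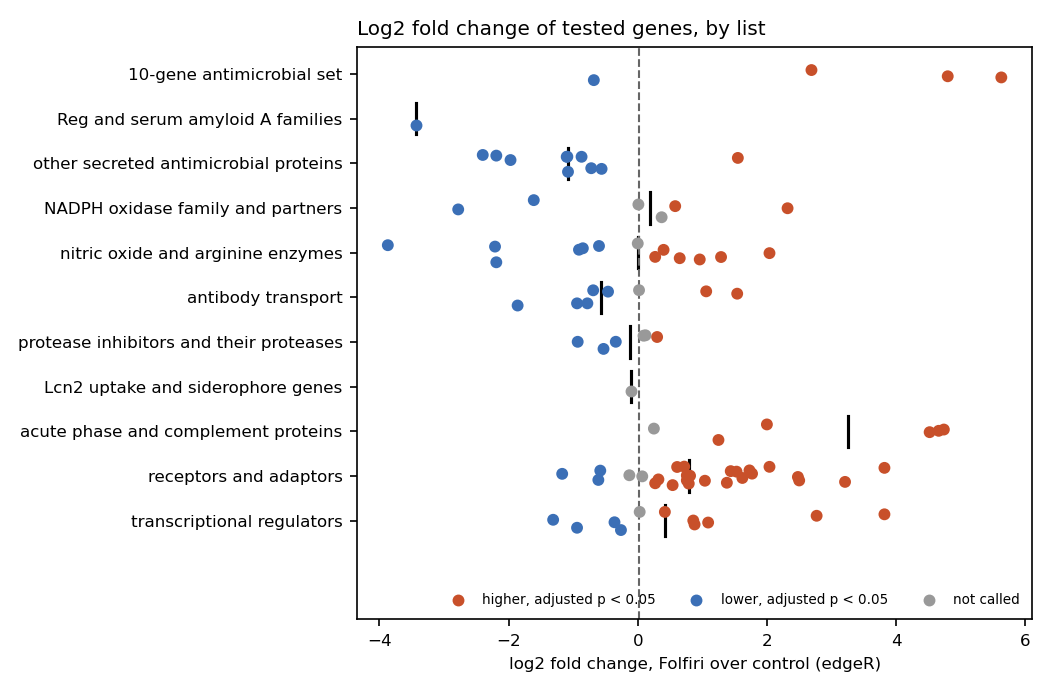
Log2 fold changes (Folfiri over control, edgeR) of the tested genes of each list, coloured by call at an adjusted p under 0.05; black bars are list medians and the dashed line is the median over the whole test, 0.02. Secreted antimicrobial genes lie mostly to the left, with a median of -1.08, and receptors mostly to the right, with a median of 0.80. Of the 6 acute phase genes, 3 entered the test only through their treated samples, as did Lcn2, Saa3 and Nos2.

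Receptors and adaptors through which such genes are known to be induced were higher in 21 of 26 tested cases and lower in 3, beside 40.3% and 38.8% of all tested genes, with a median log2 fold change of 0.80. Of the 21, 3 passed the filter only through their treated samples. The list was chosen with earlier results of these data known, so its share is a description only. Nod2, a sensor of bacterial muramyl dipeptide, had 8, 3 and 1 reads in controls and 57, 76 and 93 after Folfiri (log2 fold change 3.82, SE 0.37), and passed the filter only through the treated samples, as Osmr and Tlr1 did. Osmr, the oncostatin M receptor subunit, went from 0.456 ± 0.0525 to 4.27 ± 0.719 CPM (3.21), and Tlr1, which senses bacterial lipopeptides, from 0.539 ± 0.345 to 3.20 ± 0.413 CPM (2.5). Il17re, the IL-17C receptor subunit of epithelium, was not among the 3 largest changes but rose from 3.62 ± 0.778 to 20.4 ± 0.782 CPM (2.48; named after its value was seen). Its partner Il17ra rose by 1.73 and the IL-22 receptor subunit Il22ra1 by 0.76, both named likewise. Il17rc (-0.61), Ticam1 (-0.58), the adaptor of Tlr3, and Nod1 (-1.17), a sensor of bacterial peptidoglycan, were lower.

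Among 11 transcriptional regulators of these genes, 6 were higher and 4 lower (median 0.42), shares not far from the 40.3% and 38.8% of all tested genes. Cebpd, a C/EBP factor of the acute phase response, rose from 3.62 ± 0.20 to 51.5 ± 6.51 CPM (log2 fold change 3.82, SE 0.12, adjusted p = 3.37e-09 in edgeR), with 107, 88 and 68 reads in controls and 1339, 1601 and 1909 after Folfiri. Zc3h12a, an RNase that degrades inflammatory mRNAs, rose from 1.40 ± 0.237 to 9.73 ± 0.642 CPM (2.77), and Irf1, an interferon response factor, from 38.4 ± 4.83 to 81.3 ± 4.61 CPM (1.09). The epithelial factor Elf3 fell from 508 ± 94.3 to 205 ± 6.02 CPM (-1.31), the cytokine signal inhibitor Socs3 by 0.94 on the log2 scale, and Cebpb had a log2 fold change of -0.36. Stat3, which relays IL-22 and IL-6 signals, was at 173 ± 3.86 and 177 ± 4.40 CPM (0.03, adjusted p = 0.661 in edgeR). Exons on the opposite strand overlap Cebpd, Irf1, Elf3, Cebpb and Stat3.

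**Figure D4:**
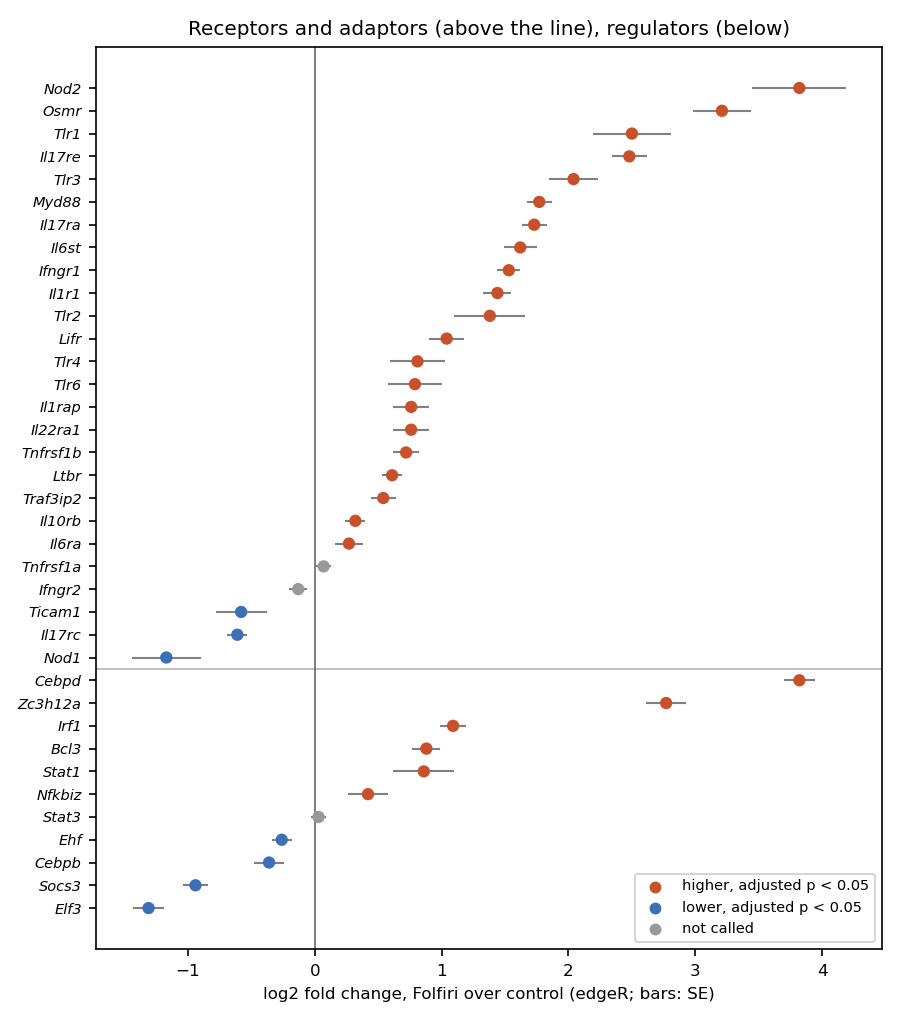
Log2 fold changes (Folfiri over control, edgeR) of 26 tested receptors and adaptors and 11 regulators, with bars of 1 SE, coloured by call at an adjusted p under 0.05. Nod2 and Cebpd, both at 3.82, are the highest of their lists, and Nod1 and Elf3 the lowest at -1.17 and -1.31.

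Within 50 kb of a member lay 36 other genes, 26 with a row and 14 tested, of which 8 were higher and 3 lower, beside 40.3% and 38.8% of all tested genes. Il24, a cytokine gene of the IL-10 family 29825 bp from Pigr, rose from 0.274 ± 0.0445 to 4.36 ± 0.262 CPM (log2 fold change 3.96), and Fcamr, an IgA and IgM receptor 11944 bp from Pigr, from 0.163 to 0.488 CPM (1.54), both of which passed the filter only through their treated samples. Lgals9, a galectin gene 2720 bp from Nos2, rose from 6.39 ± 0.435 to 19.4 ± 3.51 CPM (1.60). Near Lcn2, Ptges2 (1.25), Slc25a25 (0.56), 1110008P14Rik (0.53) and Ciz1 (0.23) were higher, and Dnm1 (-1.02) and the pseudogene Gm13413 (-0.96) lower. Hps5 near Saa1 was higher (0.34) and Shf near Duoxa2 lower (-0.40).

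Markers of other cells that make these proteins were examined, because Lcn2, Slpi and Ltf are also neutrophil genes and Nos2 and Saa3 are also macrophage genes. All 7 epithelial markers were read, with a sum between 5730 and 6640 CPM in controls and between 4650 and 4820 CPM after Folfiri. Of the 7, 4 were lower and 1 higher, where 38.8% of all tested genes were lower and 40.3% higher. Of 11 neutrophil markers 3 were tested. S100a8, from 0.913 ± 0.294 to 5.22 ± 0.706 CPM, and S100a9, from 0.304 ± 0.119 to 4.37 ± 0.0533 CPM, were higher. Ly6g, named for its use as a neutrophil marker, was abundant in these organoids and lower after Folfiri (1130 ± 208 and 519 ± 31.7 CPM). Without Ly6g the list summed to between 1.16 and 1.69 CPM in controls and to between 9.17 and 10.6 CPM after Folfiri, nearly all of it S100a8 and S100a9, while the granule genes Mpo, Elane and Ngp had at most 3 reads in any library. Ltf, another granule gene, had 1, 0 and 1 reads in controls and 5, 3 and 3 after Folfiri, and Camp had 0, 0 and 0 against 4, 0 and 1. Of 11 immune markers 10 had a row. Without Cd68 (23.6 and 20.5 CPM), they summed to between 0.823 and 1.04 CPM in controls and to between 2.52 and 2.68 CPM after Folfiri, with Ptprc (0.396 and 1.06 CPM) and Adgre1 (0.226 and 0.863 CPM) called higher, and with Lyz2, Tyrobp, Csf1r and Itgam at no more than 3 reads per library. Of 8 fibroblast markers 4 were tested, 2 higher and 2 lower, beside 40.3% and 38.8% of all tested genes. The sum over the list, mostly Vim, went from between 74.6 and 93.0 CPM to between 19.2 and 21.0 CPM. Without Vim it was 1.08 to 1.49 CPM in controls and 2.12 to 2.65 CPM in treated samples, with Dcn (0.024 and 0.694 CPM) and Pdgfra (0.397 and 1.14 CPM) called higher. Col1a1 was called lower, and passed the filter only through its controls. Of 12 Paneth and goblet markers 5 were tested, 1 higher and 4 lower, beside 40.3% and 38.8% of all tested genes. Clca1 was higher (log2 fold change 2.4), and Agr2 (-3.0), Fcgbp (-2.19), Itln1 (-0.72) and Mmp7 (-0.69) were lower. That list summed to between 103 and 107 CPM in controls and to between 32.5 and 33.6 CPM after Folfiri. Ptprc, Adgre1, S100a9, Dcn and Pdgfra passed the filter only through their treated samples. Whether the markers that moved have a part in the rise of Lcn2, Saa3 and Nos2 was not tested.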

How the data were processed

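Poly(A) RNA libraries of 6 MTO54 samples were sequenced, 3 control and 3 Folfiri, grouped by their labels. The authors aligned reads with STAR (version 2.5.2 in the submitters' processing notes) to GRCm38, sorted them with Sambamba, counted them per gene with Rsubread on a GENCODE annotation and deposited raw counts without normalization. Counts per sample ranged from 22103591 to 30098210. Strand and multi-mapping settings are not given in the sources used here. Intervals from counts cover counting error only.

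The deposited counts were tested with edgeR 4.0.16 in R 4.3.3, with filterByExpr at defaults (minimum count 10), TMM, the quasi-likelihood F test and Benjamini-Hochberg adjustment over 14692 genes, at a threshold of 0.05. The study's own tool, DESeq2 (1.42.0 here), was an alternative, beside other scalings, filters, a replicate block and leaving out each replicate. Ratios of reads carry exact binomial 95% intervals after scaling for effective library size. Symbols, positions and exonic lengths came from GENCODE vM21, which held 24168 of the 24190 genes, and promoters from RefSeq on GRCm38.p6. The procedure was tested on simulated data. The ratio of Reg3b to Reg3g, planned as the fourth, could not be computed, so adjustment covered 3 ratios.

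The members and lists were chosen with earlier results of these data known. All members are named, with up to 3 genes per direction in each list that were called, had separate groups and at least 1 CPM in a group, ranked by absolute log2 fold change, their direct partners and paralogs, and called genes within 50 kb of a member. Named outside this rule, after their values were seen, were Pglyrp1, Sprr2a1, Sprr2a2, Lbp, Zg16, Ang, Reg1, Reg2, Asl, Gch1, Hp, Hpx, Lrg1, Il17re, Il17ra, Il22ra1, Stat3, Lrp2, Bdh2 and the cell type markers. No 2 samples agreed within sampling noise. Results for some genes that the rule covers are left out.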

Additional observations from a re-analysis of the deposited data

How the results depend on the processing

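Lcn2, Saa3 and Nos2 were called higher in every alternative in which they were tested, which their near-absence from controls makes uninformative, so the range of their log2 fold changes is given. Leaving out 1 replicate at a time gave 4.43 to 5.16 for Lcn2, 5.24 to 5.96 for Saa3, 2.58 to 2.91 for Nos2 and -0.86 to -0.47 for Slpi, whose call was lost without control replicate 2 or Folfiri replicate 2. The other alternatives gave 4.77 to 5.06, 5.59 to 5.88 and 2.67 to 2.96 for the genes that rose. With a filter of at least 1 CPM in 3 samples, only 1 member was called higher, because Saa3 and Nos2 were no longer tested. With total counts only, 0 members were called lower (Slpi -0.40, adjusted p = 0.111 in edgeR), and across the fits without 1 replicate the number was 0 to 1.

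Without a filter, 1 Reg or Saa relative, 2 other secreted genes and 1 Lcn2 uptake gene were called higher. With the stricter filter, 0 other secreted genes, 1 antibody transport gene and 2 acute phase genes were called higher and 1 oxidase gene lower, as fewer genes were tested. With total counts only, 4 oxidase genes and 3 protease inhibitor genes were called higher and 2 regulators lower. Of 20 counts of calls per list and direction, 11 were within 1.5 times the reported count in every alternative. Genes called in all numbered 11623, between 11021 and 12312 without 1 replicate and between 10630 and 12742 otherwise.

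The log2 ratio of Saa1 to Saa3 was -2.81 in place of -3.78 when 5 reads were added, as its control values are set by the added number. That of Duox2 to Duoxa2, in which Duoxa2 was unread in 5 of 6 libraries, was -0.27 and changed sign with 5 reads added (0.03), without control replicate 2 (0.23) and without Folfiri replicate 3 (0.68), over a range of -0.91 to 0.68 without 1 replicate, and that of Duox2 to Duox1 ranged from -1.33 to -0.22; the cause was not tested.

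Samples of the same replicate number did not deviate together (correlations 0.0267, -0.117 and 0.0393), so the numbers were not taken to pair samples. With the number as a replicate block, 11499 genes were called in place of 11623, and Lcn2 had a log2 fold change of 4.77. Depth limits Pigr, Duox2, Duoxa2, Saa1 and Reg3g, whose 17 or fewer reads per library leave wide counting intervals.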
